A study of Mus musculus with 2 samples.

Results

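The 10 circadian clock genes Arntl, Clock, Per2, Per3, Cry1, Cry2, Nr1d1, Nr1d2, Dbp and Noct were described across 6 cell classes of mouse pancreatic islets. They were taken by symbol from 28692 genes in the deposited tables, and each symbol matched 1 gene. Single-cell RNA of islets was measured in 1 droplet library of flox/flox mice and 1 library labelled BcBKO, each pooled from at least 3 mice. The series describes BcBKO as a beta-cell-specific ablation, associates it with Pdx1-cre and names BAF60C, a subunit of the BAF chromatin remodellers encoded by Smarcd3, in its title. In Pdx1-cre mice the Pdx1 promoter drives the recombinase, and Pdx1 is active in the early pancreas and later mainly in beta cells. Whether the flox/flox mice carried Cre, the age and sex of the mice and the time of day at which islets were collected are not given in the sources used here. With 1 library per group there is no replicate and no test: the 95% intervals below reflect counting error alone, and a difference between libraries is a difference between 2 pools of mice.

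The circadian clock is a loop of transcription and repression that runs in nearly every cell. CLOCK and BMAL1, the protein of Arntl, bind DNA elements called E-boxes as a pair and switch on the Per, Cry, Nr1d1, Nr1d2 and Dbp genes. PER and CRY proteins repress that pair, NR1D1 and NR1D2 (REV-ERB alpha and beta) repress Arntl, and DBP activates genes with D-boxes, among them the Per genes. In peripheral tissues Dbp, Nr1d1, Nr1d2 and the Per genes are known to peak at a time of day roughly opposite to Arntl. In islets the clock is known for timing insulin secretion, and mice without Arntl in the pancreas secrete too little insulin. The question here was whether the libraries looked like the same clock phase in each cell class.

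The sequences that link the members to this loop were read from RefSeq promoters (GRCm38.p6, the same build as mm10), which hold an entry for 9 of the 10 members. The 250 bases before the annotated start were searched on both strands for the E-box CACGTG, the related element CACGTT, the D-box TTATGNAA and the REV-ERB/ROR elements TAGGTCA and TGGGTCA. The 4 promoters printed here are those of a member of each arm with a match: a period gene, a cryptochrome gene, a REV-ERB gene and Noct, which had the lowest library ratio of the members in beta cells. Capitals mark the matches, and each sequence runs 5′ to 3′ along the gene's strand.
Per3 promoter (minus strand, chr4:151044666-151044915): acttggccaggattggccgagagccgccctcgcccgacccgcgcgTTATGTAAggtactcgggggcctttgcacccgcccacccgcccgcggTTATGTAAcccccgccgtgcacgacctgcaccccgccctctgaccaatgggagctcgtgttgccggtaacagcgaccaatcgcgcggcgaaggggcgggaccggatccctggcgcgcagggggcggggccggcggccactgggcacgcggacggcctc
Cry1 promoter (minus strand, chr10:85185055-85185304): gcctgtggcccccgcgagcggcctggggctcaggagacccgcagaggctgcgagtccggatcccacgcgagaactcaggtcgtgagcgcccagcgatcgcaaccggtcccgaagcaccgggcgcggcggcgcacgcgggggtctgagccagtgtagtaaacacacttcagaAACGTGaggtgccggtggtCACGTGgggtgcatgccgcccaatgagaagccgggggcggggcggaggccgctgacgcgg
Nr1d1 promoter (minus strand, chr11:98775378-98775627): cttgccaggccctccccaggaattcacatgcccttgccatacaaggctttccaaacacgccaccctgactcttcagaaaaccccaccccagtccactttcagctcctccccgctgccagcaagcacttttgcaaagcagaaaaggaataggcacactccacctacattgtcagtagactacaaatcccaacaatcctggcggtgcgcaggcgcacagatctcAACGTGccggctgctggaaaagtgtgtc
Noct promoter (plus strand, chr3:51224197-51224446): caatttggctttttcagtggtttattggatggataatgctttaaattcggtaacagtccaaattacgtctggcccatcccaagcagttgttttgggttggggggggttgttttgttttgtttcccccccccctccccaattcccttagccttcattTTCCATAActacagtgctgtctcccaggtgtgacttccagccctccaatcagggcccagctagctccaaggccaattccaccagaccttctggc
Per3 held 2 D-boxes, which began 205 and 158 bases before the start. Cry1 held CACGTG 60 bases and CACGTT, read on the other strand, 79 bases before the start. CACGTT on the other strand also began 28 bases before the start of Nr1d1 and 166 bases before that of Cry2, and a D-box on the other strand began 94 bases before that of Noct. Among 32851 promoter windows of this length, 6.02% held CACGTG, 3.85% CACGTT, 3.07% the D-box, 2.23% TAGGTCA and 3.24% TGGGTCA. These letters were not found in the windows of Arntl, Clock, Nr1d2 and Dbp, which says only that they are not in these 250 bases.

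Of 9438 and 10775 deposited barcodes in the flox/flox library and the library labelled BcBKO, with 167670996 and 178647270 UMIs (counted RNA molecules), 7568 and 8504 passed the cell filter. Classes were set by hormone and marker UMIs, and 629 and 595 barcodes that met more than 1 class rule were left out. There were 2750 and 3058 beta cells, 377 and 634 alpha cells, 242 and 308 delta cells, 1178 and 996 endothelial cells, 223 and 163 mural cells (pericytes and smooth muscle) and 422 and 331 macrophages. Class totals ran from 120173034 and 116428063 UMIs in beta cells to 1141210 and 691360 in mural cells, so precision falls steeply outside beta cells. Markers not used by the rule were highest in their own class for 5 of 7 beta, 6 of 6 endothelial, 7 of 7 mural and 6 of 6 macrophage genes in both libraries, for 3 and 4 of 5 alpha genes and for 5 and 4 of 5 delta genes. Smarcd3, the gene of the title, was not lower in beta cells of the library labelled BcBKO, with 71 UMIs against 45 in the flox/flox library, so that library is called by its label throughout. Summed acinar markers, RNA of the digestive enzyme cells, were 146 and 23.7 CPM (UMIs of a gene scaled to a class total of 1000000 UMIs) in beta cells and 1674 and 187 CPM in endothelial cells. The hormones Ppy and Pyy summed to 81974 and 69686 CPM in alpha cells and to 101212 and 104569 CPM in delta cells, for which the rule sets no limit. The part of these transcripts in the clock gene values was not tested. Ppy was under 1% of UMIs in 68 of the 242 and 96 of the 308 delta cells. Among alpha cells it was so in 209 of the 377 and 355 of the 634. The levels below cover all cells of these classes, with or without Ppy. The libraries shared 23 cell barcodes, of which 14 passed the filter in both.

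Each cell class had its own profile of clock transcripts, and that profile was much alike in the libraries. Delta cells, most of them with Ppy at 1% of UMIs or more, had the highest Per2, Per3, Cry2 and Nr1d2 levels in both libraries. Mural cells had the highest Nr1d1 level of the 6 classes, endothelial cells the highest Arntl, and macrophages the lowest level of most members. A 3′ tag library counts 1 UMI per RNA molecule, so levels are in CPM without scaling by gene length.

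**Figure D1:**
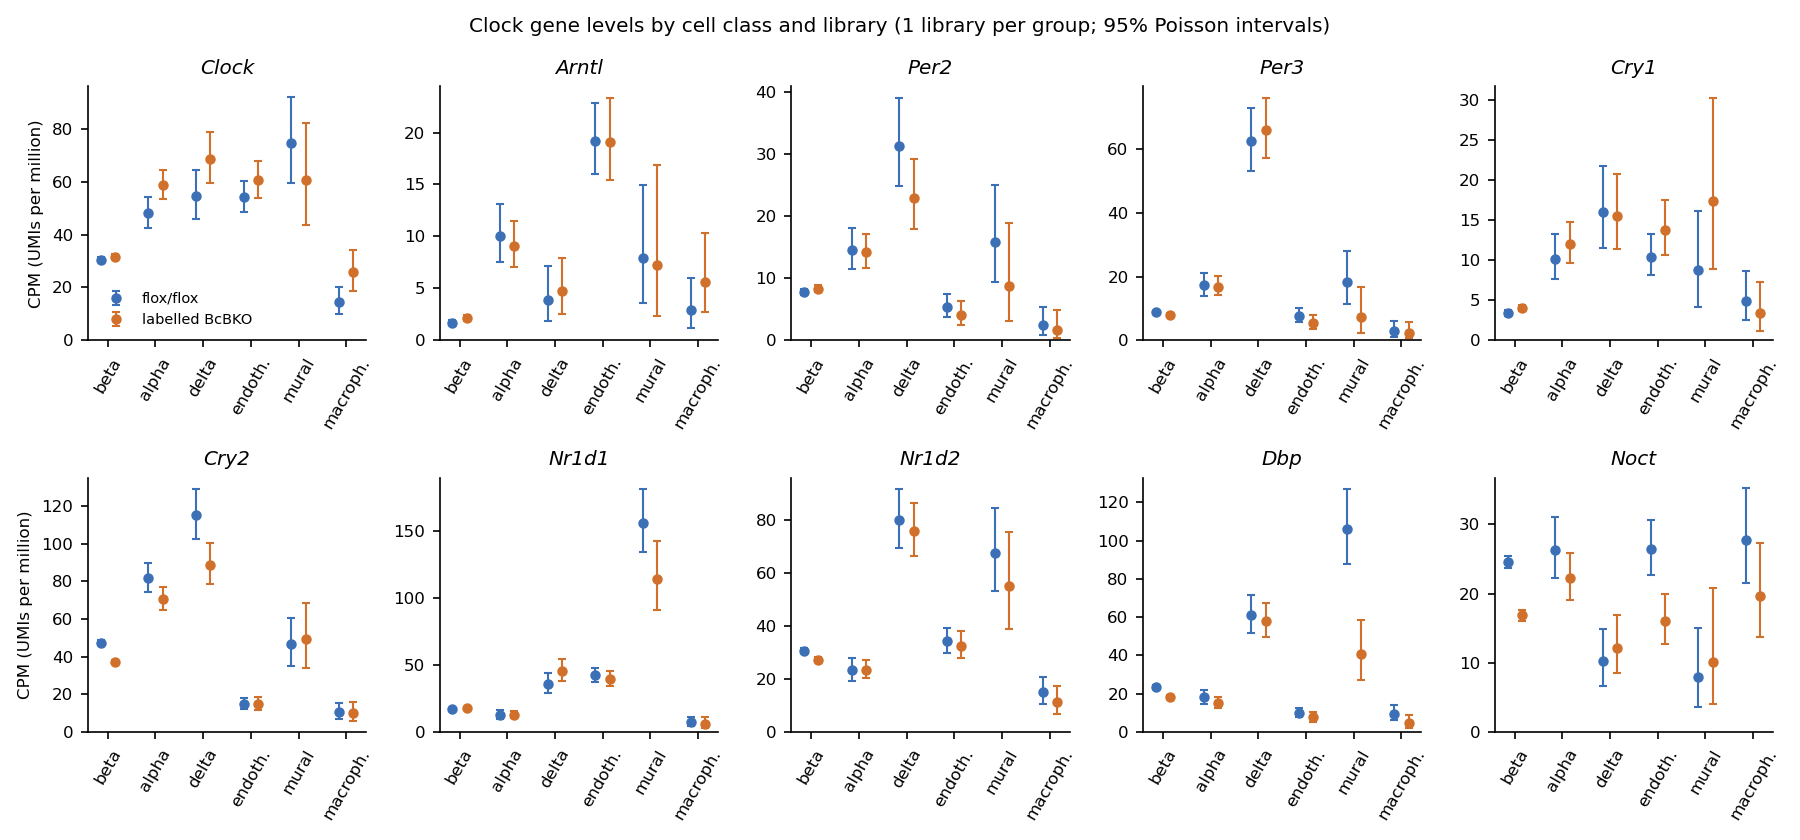
Level of each clock gene (CPM, linear axis from 0) in 6 cell classes of the flox/flox library (blue) and the library labelled BcBKO (orange); points are class sums and bars 95% Poisson intervals. Per3 in delta cells stands at 62.6 and 66.2 CPM, and Nr1d1 in mural cells at 156 and 114 CPM.

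Clock (ENSMUSG00000029238; chromosome 5, 76209868 to 76304792), one partner of the activator, was found in all 6 classes. There were 3673 UMIs in flox/flox beta cells, or 30.6 CPM (interval 29.6 to 31.6), and 3693 in those labelled BcBKO, or 31.7 CPM (30.7 to 32.8). Alpha cells had 48.1 and 58.7 CPM, delta cells 54.4 and 68.6 CPM, endothelial cells 54.2 and 60.5 CPM and mural cells 74.5 and 60.7 CPM. Macrophages were lowest, at 14.5 CPM (10.1 to 20.1) and 25.8 CPM (18.9 to 34.4), while the intervals of alpha, delta, endothelial and mural cells overlapped within each library, except those of alpha and mural cells in the flox/flox library.

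Arntl (ENSMUSG00000055116; chromosome 7, 113207465 to 113314126), which encodes the other partner, BMAL1, was scarce. Endothelial cells had the highest level, 19.2 CPM (16.0 to 22.9) and 19.1 CPM (15.4 to 23.4), followed by alpha cells at 10.0 and 9.05 CPM. Beta cells had the lowest, 1.71 CPM (1.48 to 1.96) from 205 UMIs and 2.16 CPM (1.90 to 2.45) from 252 UMIs. Delta cells, mural cells and macrophages gave 24 UMIs or fewer over both libraries, which is too few for a ratio here, where at least 30 UMIs were required.

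Among the repressors, Per3 (ENSMUSG00000028957; chromosome 4, 151003652 to 151044665) set delta cells apart. It stood at 62.6 CPM (53.3 to 73.1) and 66.2 CPM (57.3 to 76.2) there, against 17.3 and 16.9 CPM in alpha cells and 8.79 and 7.94 CPM in beta cells. Mural cells had 18.4 and 7.23 CPM, from 21 and 5 UMIs. From the highest to the lowest class Per3 ranged 21.6-fold and 29.6-fold in the respective libraries, with macrophages lowest at 2.90 and 2.24 CPM. Per2 (ENSMUSG00000055866; chromosome 1, 91415982 to 91459324) followed the same outline at a lower level, with 31.3 and 23.0 CPM in delta cells, 14.5 and 14.2 CPM in alpha cells and 7.81 and 8.32 CPM in beta cells.

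The cryptochromes also repress CLOCK and BMAL1. Cry2 (ENSMUSG00000068742; chromosome 2, 92403646 to 92434043) divided the endocrine classes from the vascular and immune ones. It stood at 115 and 88.9 CPM in delta cells, 81.7 and 70.7 CPM in alpha cells and 47.4 and 37.3 CPM in beta cells, but at 14.9 and 14.8 CPM in endothelial cells and 10.3 and 10.1 CPM in macrophages. Mural cells, at 46.4 and 49.2 CPM, lay with the beta cells. Cry1 (ENSMUSG00000020038; chromosome 10, 85131700 to 85185064) was lower in each of the endocrine classes, with 3.40 and 4.03 CPM in beta, 10.2 and 12.1 CPM in alpha and 16.0 and 15.5 CPM in delta cells. The delta-cell intervals overlapped those of alpha, endothelial and mural cells.

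The REV-ERB genes differed in where they were highest. Nr1d1 (ENSMUSG00000020889; chromosome 11, 98767932 to 98775333) led in mural cells, at 156 CPM (134 to 181) and 114 CPM (90.5 to 142). Endothelial cells had 42.2 and 39.6 CPM, delta cells 36.0 and 45.6 CPM, beta cells 17.4 and 17.6 CPM and alpha cells 12.6 and 12.5 CPM. Nr1d2 (ENSMUSG00000021775; chromosome 14, 18204054 to 18239127) was highest in delta cells, at 79.9 and 75.7 CPM, and in mural cells, at 67.5 and 55.0 CPM, with overlapping intervals. It was 30.6 and 27.2 CPM in beta cells and 14.9 and 11.2 CPM in macrophages.

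Dbp (ENSMUSG00000059824; chromosome 7, 45705088 to 45710203), the D-box activator, was highest in mural cells of the flox/flox library and in delta cells of the library labelled BcBKO. Mural cells had 106 CPM (88.0 to 127) and 40.5 CPM (26.9 to 58.5), and delta cells 61.1 CPM (51.9 to 71.4) and 57.8 CPM (49.4 to 67.1). Beta cells had 23.4 and 18.4 CPM, alpha cells 18.0 and 15.1 CPM, endothelial cells 9.98 and 7.52 CPM and macrophages 9.51 and 4.48 CPM.

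Noct (ENSMUSG00000023087; chromosome 3, 51224447 to 51251644), which encodes nocturnin, a phosphatase of NADP(H) known for its daily rhythm in many tissues, had a different order of classes. Macrophages had 27.7 and 19.6 CPM, endothelial cells 26.4 and 16.0 CPM, alpha cells 26.4 and 22.3 CPM and beta cells 24.5 and 16.8 CPM. Delta cells, the highest class for Per2, Per3 and Cry2, had 10.2 and 12.2 CPM, and mural cells 7.89 and 10.1 CPM.

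Islet insulin RNA was present in every class, at 1.97% to 4.78% of UMIs outside beta cells in the flox/flox library and 2.61% to 5.61% in the library labelled BcBKO, against 64.3% and 62.0% in beta cells. If beta-cell RNA had come along at that share, it would have brought 1.61 and 1.25 CPM of Noct into endothelial cells, 3.11 and 2.77 CPM of Cry2 into endothelial cells and 1.60 and 1.41 CPM of Dbp into macrophages. These levels lay below those measured for the same genes in the same classes. In barcodes that failed the cell filter Noct stood at 54.4 and 49.4 CPM and Cry2 at 136 and 102 CPM, each above the beta-cell level of its library. The part of such RNA in the class values was not tested.

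Shares of cells with a UMI also set mural cells above macrophages for Nr1d1 and Dbp. With each cell thinned to 2000 UMIs, Nr1d1 was seen in 29.9% of 211 flox/flox mural cells (exact binomial interval 23.8 to 36.5) and in 22.9% of 153 mural cells labelled BcBKO (16.5 to 30.4). Macrophages, the class with the lowest Nr1d1 level, had 1.70% of 412 and 0.920% of 326. Dbp was seen in 18.5% (13.5 to 24.4) and 9.15% (5.09 to 14.9) of these mural cells and in 1.70% and 1.84% of these macrophages. The macrophage shares rested on 7 and 6 cells and did not fall between libraries as the level did. Endothelial cells had 2.17% and 1.37%, so macrophages were not lowest by share in the library labelled BcBKO. Without thinning the mural shares were 48.4% and 31.9% for Nr1d1 and 28.7% and 14.7% for Dbp, at median depths of 4375 and 3611 UMIs, and the macrophage shares were 3.79% and 2.72% for Nr1d1 and 4.50% and 2.42% for Dbp, at 5474.5 and 4999 UMIs. Thinning left out 12 and 10 mural cells and 10 and 5 macrophages.

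Between the libraries, the members were more often lower than higher in the library labelled BcBKO. Of the 60 pairs of a member and a class, 49 had at least 30 UMIs over both libraries and were compared as the log2 ratio of CPM in the library labelled BcBKO over CPM in the flox/flox library. Of these, 33 lay below 0, with a median of −0.08, while 43.5% of all 60568 gene and class pairs lay below 0, with a median of 0.04. The excess below 0 was not kept under each setting: 19 of 37 pairs lay below 0 with cells thinned to a fixed depth, and 27 of 48 with alpha and delta cells of low Ppy. A ratio of 1.3-fold or more was taken as the mark of a difference, but counting error alone can pass it in small classes. In simulated counts of unchanged genes, 4.65% passed it in either direction in beta and 10.1% in endothelial cells. In alpha, delta and mural cells and macrophages 11.9%, 15.7%, 23.1% and 19.2% did. In the data, the mark was passed downwards by 11 of the 49 pairs, against a background of 9.38% of all pairs, and upwards by 2, against 11.7%. The 11 lower pairs were Noct in beta cells, Per2 in delta cells, Noct, Per3, Dbp and Per2 in endothelial cells, Dbp and Nr1d1 in mural cells, and Dbp, Noct and Nr1d2 in macrophages. The 2 higher pairs were Clock in macrophages and Cry1 in endothelial cells. The interval of the ratio lay clear of 0 for 5 of these 13: Noct in beta and endothelial cells, Dbp and Nr1d1 in mural cells and Clock in macrophages.

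**Figure D2:**
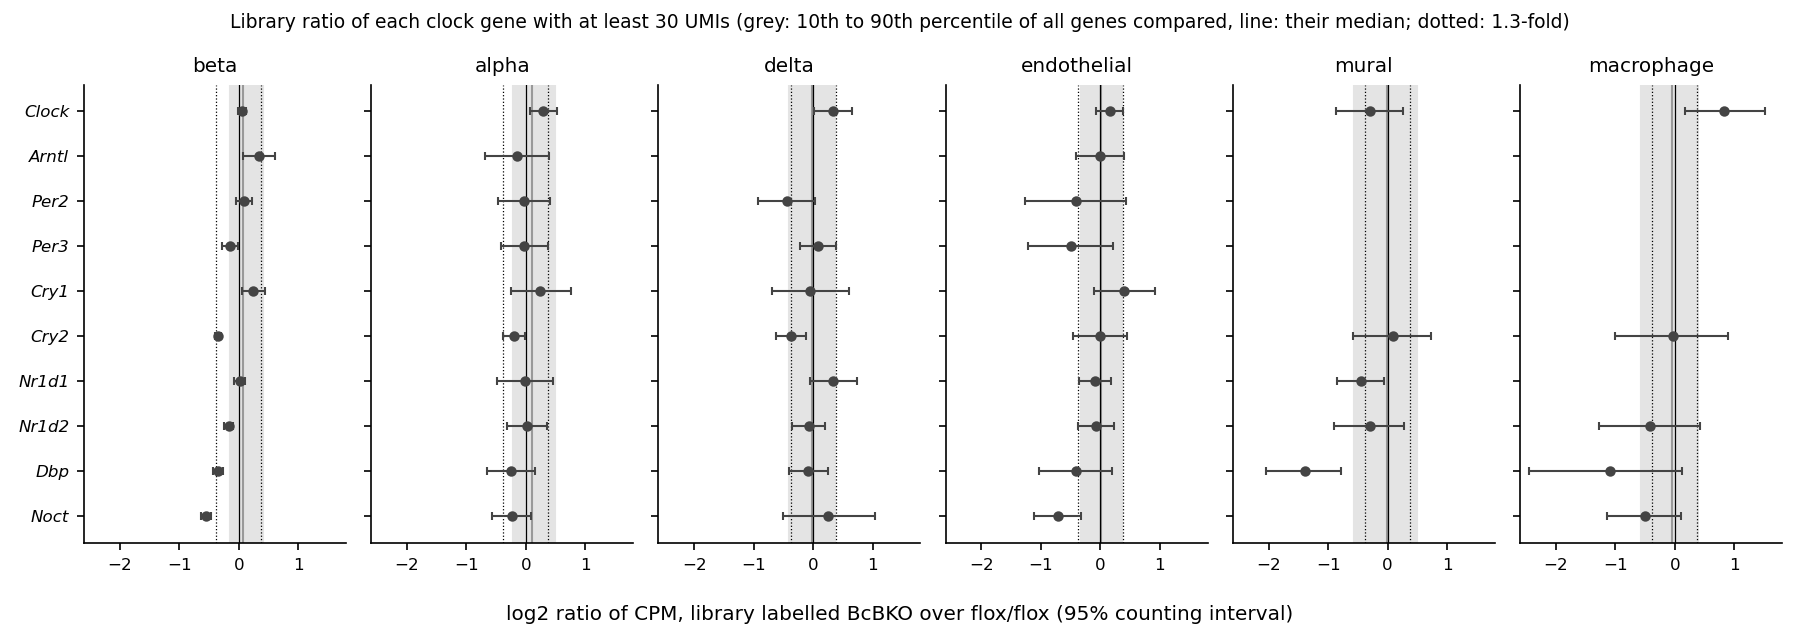
Log2 ratio of CPM (library labelled BcBKO over flox/flox, horizontal axis) for each clock gene with at least 30 UMIs, by cell class, with 95% counting intervals; grey bands span the 10th to 90th percentile of all genes compared, the grey line is their median and dotted lines mark 1.3-fold. Dbp in mural cells lies farthest from 0, at −1.39, and Noct is at −0.54 in beta and −0.72 in endothelial cells.

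In beta cells, the class with by far the most UMIs, Noct, Dbp and Cry2 had the lowest ratios and Arntl and Cry1 the highest. Noct had 2949 UMIs in the flox/flox cells and 1959 in those labelled BcBKO, which gave a log2 ratio of −0.54 (−0.63 to −0.46). Dbp had 2812 and 2140 UMIs (−0.35, −0.43 to −0.27), and Cry2 had 5694 and 4337 UMIs (−0.35, −0.40 to −0.29). Nr1d2 (−0.17, −0.24 to −0.10) and Per3 (−0.15, −0.28 to −0.02) lay slightly below 0. Arntl stood at 0.34 (0.07 to 0.62) and Cry1 at 0.25 (0.05 to 0.44). Clock (0.05, −0.01 to 0.12), Per2 (0.09, −0.04 to 0.22) and Nr1d1 (0.02, −0.07 to 0.11) had intervals that included 0. Thus 1 of 10 members was lower past 1.3-fold, where the background was 3.17% of 13988 genes, and none was higher, where it was 11.1%. The median of the members was −0.06, that of all genes 0.08. Cry2 was lower past 1.3-fold too, at −0.38 with cells thinned to 10000 UMIs, −0.43 with TMM scaling (totals trimmed of extreme genes), −0.42 with median-of-ratios scaling, −0.42 with totals that leave out hormones and mitochondrial genes, and −0.55 by mean UMIs per cell. Dbp likewise passed it, at −0.43, −0.42, −0.42 and −0.55 under the last 4 of these settings and at −0.38 with a higher UMI minimum for beta cells.

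In alpha cells no member passed 1.3-fold, where the background was 4.45% of 10795 genes downwards and 15.7% upwards. Clock was highest, with 259 and 448 UMIs and a log2 ratio of 0.29 (0.07 to 0.52), and Dbp (−0.26, −0.66 to 0.15), Noct (−0.24, −0.57 to 0.09) and Cry2 (−0.21, −0.39 to −0.02) were lowest. Arntl, at −0.15 (−0.68 to 0.39), rested on 54 and 69 UMIs. TMM scaling lowered each alpha-cell ratio by 0.11, and with cells thinned to 2000 UMIs Cry2 and Noct stood at 0.08 and 0.22 and Per3, from 9 and 24 UMIs, at 0.68. In alpha cells with Ppy under 1% Cry1 had 20 and 52 UMIs and a ratio of 0.82. By mean UMIs per cell Dbp (−0.50), Noct (−0.49), Cry2 (−0.46) and Arntl (−0.40) were lower past 1.3-fold, and with under 5% insulin Dbp was (−0.39).

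In delta cells Per2 was lower past 1.3-fold, with 80 and 68 UMIs and a log2 ratio of −0.45 (−0.93 to 0.04), 1 of 9 members compared against a background of 11.6% of 9852 genes. None was higher, against 9.83%. Cry2 was at −0.37 (−0.62 to −0.13) and Clock at 0.33 (0.02 to 0.66), as was Nr1d1, at 0.34 (−0.05 to 0.74). Per3, the gene that set this class apart by level, and Dbp stood at 0.08 (−0.23 to 0.39) and −0.08 (−0.40 to 0.24). Among the delta cells with Ppy under 1% of UMIs, which were 68 and 96 cells, Per2 had 21 and 26 UMIs and a ratio of 0.10.

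Endothelial cells had 4 of 10 members lower past 1.3-fold, where the background was 7.88% of 10913 genes, and 1 higher, where it was 9.37%. Noct had 172 and 79 UMIs, a log2 ratio of −0.72 (−1.12 to −0.33). Per3 (50 and 27 UMIs, −0.49, −1.22 to 0.22), Dbp (65 and 37, −0.41, −1.03 to 0.19) and Per2 (35 and 20, −0.40, −1.27 to 0.43) had intervals that included 0. Cry1, with 68 UMIs in each library, was at 0.40 (−0.10 to 0.91) by the smaller total of the library labelled BcBKO, and at −0.02 in the endothelial cells with under 5% insulin. Clock, Nr1d1 and Nr1d2, the members with most UMIs here, stood at 0.16, −0.09 and −0.08, and Arntl and Cry2 at −0.01 each, all with intervals that included 0.

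In mural cells Dbp showed the largest ratio of any compared pair of member and class. It had 121 UMIs in 223 flox/flox cells and 28 in 163 cells labelled BcBKO, a log2 ratio of −1.39 (−2.04 to −0.79). Nr1d1 had 178 and 79 UMIs (−0.45, −0.85 to −0.06), while Clock (−0.29), Nr1d2 (−0.30) and Cry2 (0.08) had intervals that included 0. Hence 2 of 5 members compared were lower past 1.3-fold, where the background was 18.6% of 7118 genes, and none was higher, where it was 15.1%. Per2, with 18 and 6 UMIs, and Per3, with 21 and 5, were too sparse to compare. The mural class excludes 569 and 498 barcodes that met the endothelial rule as well. Of these, 555 and 489 met no other rule, and they carried summed endothelial markers of 11015 and 11744 CPM and mural markers of 1879 and 1536 CPM, against 6927 and 6217 CPM of mural markers in the mural class. With these barcodes counted in both classes the Dbp ratio in mural cells was −0.86, with each given to the class of its higher marker sum it was −0.74, and in the 104 and 44 mural cells with under 5% insulin it was −2.84, from 87 and 5 UMIs. RNA of other cells differed between the mural classes as well: summed beta markers were 8211 and 4848 CPM, alpha markers 1188 and 337 CPM and acinar markers 1259 and 239 CPM, with no beta or acinar marker and 1 of 5 alpha markers at 0 in either library. Their part in the Dbp ratio was not tested.

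Macrophages gave few clock UMIs. Clock was higher, with 35 and 46 UMIs and a log2 ratio of 0.83 (0.17 to 1.51), against a background of 10.1% of 7902 genes upwards. Dbp (23 and 8 UMIs, −1.09, −2.46 to 0.12), Noct (67 and 35, −0.50, −1.13 to 0.11) and Nr1d2 (36 and 20, −0.41, −1.28 to 0.42) were lower past 1.3-fold, 3 of 5 members compared against a background of 18.2%, or 24.2% among the 3824 genes within the members' range of UMIs. Their intervals all included 0. Cry2, with 25 and 18 UMIs, was at −0.04. Macrophages also differed in RNA of other cells, with Ppy and Pyy at 698 and 14996 CPM, acinar markers at 1099 and 182 CPM, duct markers at 352 and 41.4 CPM (0 and 2 of 4 at 0) and mural markers at 44.3 and 6.16 CPM (0 and 4 of 7 at 0), whose part in these ratios was not tested.

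Across classes, Dbp was the member whose ratio was below 0 in 6 of 6 classes, from −0.08 in delta cells to −1.39 in mural cells. Noct was below 0 in 4 of the 5 classes compared, the exception being delta cells at 0.26 (−0.51 to 1.04), and Cry2 and Nr1d2 were each below 0 in 5 of 6. Clock was above 0 in 5 of 6 classes, with mural cells at −0.29 (−0.86 to 0.26), and Cry1 in 3 of 4. Some of these signs turned under other settings: Dbp in delta cells was at 0.07 with low Ppy, and Clock in beta cells was at −0.03 with TMM scaling, −0.02 with median-of-ratios scaling, −0.02 once hormone and mitochondrial UMIs were left out of the totals and −0.15 by mean UMIs per cell.

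A ratio within a library does not depend on the class total, so the phase question was put to the UMIs of the targets Dbp, Nr1d1, Nr1d2, Per2 and Per3 over the UMIs of the activators Arntl and Clock. This target-to-activator ratio was lower in the library labelled BcBKO in 6 of 6 classes. In beta cells it was 2.73 (2.63 to 2.83) in the flox/flox library, from 10571 and 3878 UMIs, and 2.34 (2.26 to 2.43) in the library labelled BcBKO, from 9243 and 3945 UMIs. The log2 difference was −0.22 (−0.29 to −0.14). The targets did not move together there: Dbp stood at −0.35, Nr1d2 at −0.17, Per3 at −0.15, Per2 at 0.09 and Nr1d1 at 0.02. Whether a lower ratio came from clock phase or from transcript level was not tested. In alpha cells the ratio was 1.47 and 1.21 (log2 difference −0.28, −0.56 to −0.01), in delta cells 4.64 and 3.66 (−0.34, −0.69 to −0.000253) and in endothelial cells 1.36 and 1.12 (−0.28, −0.54 to −0.01). In mural cells it was 4.41 and 3.32 (−0.41, −1.004 to 0.19), and in macrophages 2.12 and 0.821 (−1.37, −2.19 to −0.54), the latter from 89 and 46 target UMIs. The intervals of beta, alpha, delta, endothelial and mural cells overlapped, so the sizes of their differences were not distinguishable at this depth, while that of macrophages lay below that of beta cells. With cells thinned to a fixed depth the difference was −0.13 in beta and −0.04 in endothelial cells, in endothelial cells with under 5% insulin it was −0.11, and with little Ppy it was −0.13 in alpha and −0.05 in delta cells. In delta cells thinning gave −0.80, a larger difference than the −0.34 of all UMIs.

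**Figure D3:**
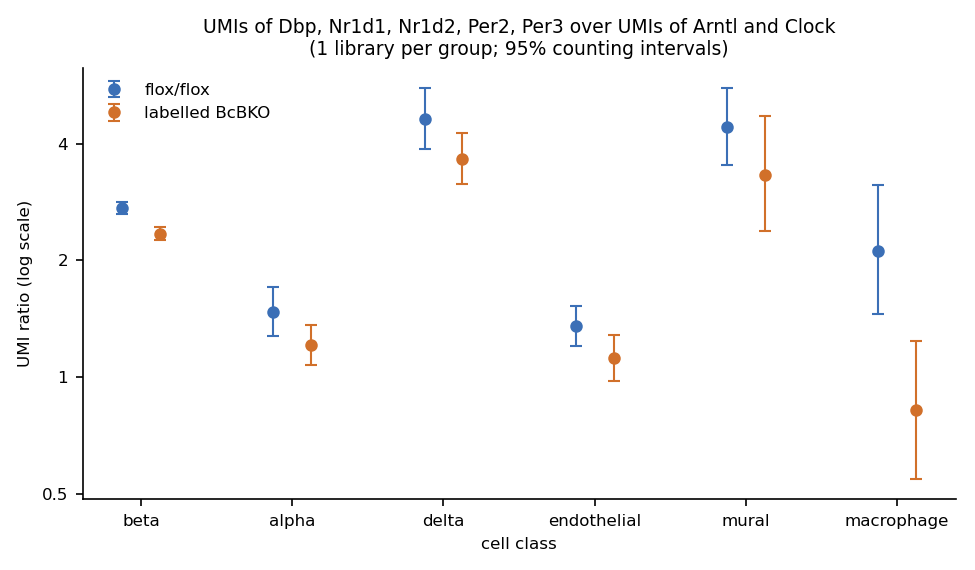
UMIs of Dbp, Nr1d1, Nr1d2, Per2 and Per3 over UMIs of Arntl and Clock (vertical axis, log scale) in each cell class of the flox/flox library (blue) and the library labelled BcBKO (orange), with 95% counting intervals. The ratio is lower in the library labelled BcBKO in each of the 6 classes, by the most in macrophages, at 2.12 against 0.821.

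The range over cell classes within a library was wider than the difference between libraries in any class. Within the flox/flox library the ratio ran from 1.36 (1.20 to 1.53) in endothelial and 1.47 (1.27 to 1.71) in alpha cells to 4.41 (3.52 to 5.58) in mural and 4.64 (3.89 to 5.58) in delta cells. The same classes took the top and the bottom among the 5 classes other than macrophages in the library labelled BcBKO, with 1.12 and 1.21 against 3.32 and 3.66. In both libraries beta cells lay between them. Clock supplied most of the activator UMIs in each class, and it is known to cycle weakly where Arntl cycles strongly. With Arntl alone as the activator the log2 difference was −0.49 in beta, −0.15 in endothelial and 0.09 in alpha cells. Arntl had 54 and 69 UMIs in alpha cells, and the lower ratio there rested on Clock. The difference was −0.29 in delta cells, −0.56 in mural cells and −1.47 in macrophages, from 24, 14 and 17 UMIs of Arntl. In delta cells Clock itself was at 0.33, while Per2 was at −0.45, Nr1d2 and Dbp at −0.08, Per3 at 0.08 and Nr1d1 at 0.34.

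**Figure D4:**
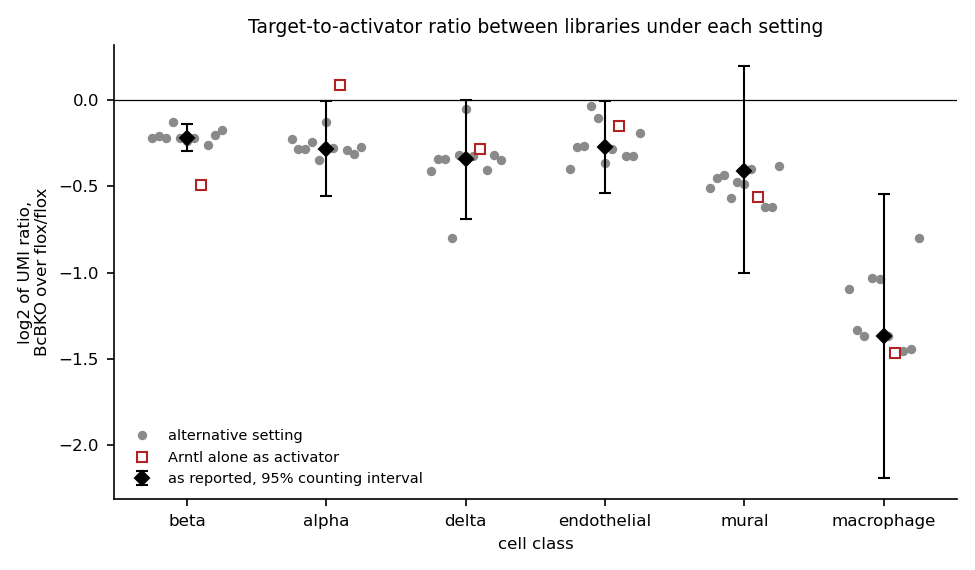
Log2 difference of the target-to-activator ratio between libraries (vertical axis) in each cell class, as reported (black, with 95% counting interval) and under each other setting (grey), with Arntl alone as the activator in red squares. Alpha cells with Arntl alone lie above 0, at 0.09. Some settings leave a class as it was or coincide, and with Arntl alone delta cells, mural cells and macrophages rest on 24, 14 and 17 UMIs of Arntl.

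The 3′ ends of 3 members overlap other genes in the annotation. Thra, on the other strand, covers the 3′ end of Nr1d1, Sphk2, on the other strand, that of Dbp, and Camta1, on the same strand, that of Per3. Whether the counting used the strand is not given in the sources used here, so Nr1d1 and Dbp are uncertain to that degree. Per3 may be uncertain either way, because the strand cannot separate it from Camta1. Overlap was judged by whole gene spans, and whether exons overlap was not tested. In mural cells, where Dbp and Nr1d1 were lower, Sphk2 had 21 and 9 UMIs (log2 ratio −0.50, −1.81 to 0.69) and Thra 213 and 120 UMIs (−0.10, −0.44 to 0.22). In beta cells Sphk2 was at 0.03, Thra at 0.11 and Camta1 at −0.03. In delta cells, where Per3 was highest, Camta1 stood at 58.3 and 52.4 CPM, and in endothelial cells, where Per3 was 7.68 and 5.48 CPM, at 55.9 and 48.3 CPM. Without Nr1d1 among the targets, the target-to-activator ratio was lower in 6 of 6 classes as well.

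Of 23 other genes of the clock and its outputs, 22 could be compared in beta cells. Past 1.3-fold there, 2 were higher and none was lower, against 11.1% and 3.17% of all genes. These were Npas2, a relative of Clock, with 19 and 54 UMIs (log2 ratio 1.55, 0.78 to 2.39), and Fbxl21, a gene of cryptochrome turnover, with 104 and 133 UMIs (0.40, 0.02 to 0.78). In alpha cells 3 of 17 were higher and 2 lower, against 15.7% and 4.45%. Among the higher were Csnk1e, a kinase of PER proteins, with 110 and 223 UMIs (0.52, 0.18 to 0.86), and Bhlhe40, a repressor, with 15 and 33 (0.64, −0.28 to 1.62). Tef, which like Dbp binds D-boxes, had 101 and 106 UMIs there (−0.43, −0.84 to −0.02).

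In mural cells 5 of the 13 other clock genes compared were lower, against 18.6% of all genes, and 2 higher, against 15.1%. Tef had 46 and 12 UMIs (−1.22, −2.27 to −0.28), Hlf, the other D-box factor of this family, 61 and 20 (−0.89, −1.69 to −0.14), Usp2, a deubiquitinase with a strong daily rhythm, 81 and 26 (−0.92, −1.61 to −0.26), and Per1 53 and 18 (−0.83, −1.69 to −0.04). In mural cells Dbp, Tef and Hlf, which make up the family of D-box activators, were thus each lower past 1.3-fold. In beta cells Tef was at −0.13 (−0.23 to −0.04) and Hlf at 0.35 (0.17 to 0.53), on either side of 0.

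In endothelial cells 3 of 19 were lower and 2 higher, against 7.88% and 9.37%. Per1, a period gene that is also induced by stress hormones and calcium, had 464 and 244 UMIs (−0.52, −0.75 to −0.30), Nfil3, a repressor at D-boxes, 192 and 104 (−0.48, −0.84 to −0.13), and Usp2 25 and 10 (−0.92, −2.14 to 0.19). Arntl2, a relative of Arntl, had 14 and 18 UMIs (0.77, −0.32 to 1.89). In delta cells Usp2, with 74 and 49 UMIs (−0.81, −1.36 to −0.27), was the lower 1 of 17, against 11.6%, and none was higher, against 9.83%. In macrophages 4 of 15 were lower, against 18.2%, among them Bhlhe40 (100 and 42 UMIs, −0.81, −1.37 to −0.28) and Csnk1e (293 and 149, −0.54, −0.83 to −0.25). Of the 2 higher, against 10.1%, Ciart, a repressor, had 33 and 42 UMIs (0.78, 0.09 to 1.49). The medians of these lists were 0.10 in beta, 0.16 in alpha, −0.07 in delta, −0.06 in endothelial, 0.03 in mural cells and −0.15 in macrophages, against 0.08, 0.11, −0.02, 0.01, −0.01 and −0.05 for all genes.

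Genes that respond to glucocorticoid, a hormone that can itself reset peripheral clocks and induces Per1, also differed between the libraries. Per1 was counted both in this list and among the other clock genes above, so the lists are not separate. In endothelial cells 8 of 8 such genes lay below 0, 5 of them past 1.3-fold, with a median of −0.50, where 47.6% of all genes lay below 0 and 7.88% were past 1.3-fold lower. In mural cells 6 of 7 lay below 0, 4 of them past 1.3-fold, with a median of −0.40, against 51.7% and 18.6% of all genes. In delta cells 6 of 6 lay below 0, 2 of them past 1.3-fold, with a median of −0.23, against 52.6% and 11.6% of all genes. In endothelial cells Zbtb16 was lowest, with 302 and 31 UMIs (log2 ratio −2.88), and Sgk1 highest, at −0.07. In beta cells Zbtb16, with 23 and 9 UMIs, was lowest at −1.31 and Sgk1 highest at 0.61, with a median of 0.07 over 8 genes. Alpha cells had 3 of 7 below 0, against 31.5% of all genes, with a median of 0.19. Past 1.3-fold, 2 were lower and 2 higher there, against 4.45% and 15.7%. Macrophages had 5 of 7 below 0, 3 of them past 1.3-fold, with a median of −0.15, against 56.8% and 18.2% of all genes. Fkbp5, singled out after its values were seen, was below 0 in 6 of 6 classes, at −0.66 in beta, −0.63 in alpha, −1.21 in delta, −1.36 in endothelial and −1.41 in mural cells and −2.10 in macrophages. Immediate-early genes, which dissociation can induce, lay below 0 for 16 of 16 in endothelial cells, from Atf3 at −0.54 to Klf4 at −0.00. Their median there was −0.17, and 1 of them was lower past 1.3-fold, against 7.88% of all genes. In beta cells 9 of 16 lay below 0, from Npas4 at −0.50 to Nr4a2 at 0.57, where 31.5% of all genes lay below 0. Past 1.3-fold, 1 was lower and 3 were higher there, against 3.17% and 11.1% of all genes. In mural cells 13 of 15 lay below 0, 6 of them past 1.3-fold lower, with a median of −0.30. Of all genes in mural cells, 51.7% lay below 0 and 18.6% were lower past 1.3-fold. The part of either response in the clock gene ratios was not tested.

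Over the 12 levels of 6 classes in 2 libraries, Clock, Cry2, Nr1d2 and Dbp had enough UMIs in each class to be compared with 5594 other genes by Pearson's r of log2(CPM + 1). The levels of Nr1d2 and Dbp followed each other with r = 0.88, those of Clock and Nr1d2 with r = 0.75. The nearest other genes were Blcap, Ndufc1 and Phpt1 for Dbp (r = 0.94, 0.93 and 0.92), Wipi1, Glt8d1 and Alkbh7 for Nr1d2 (0.96, 0.95 and 0.95), Cfap36, Map2 and Arsb for Cry2 (0.98, 0.98 and 0.97), and 1110004E09Rik, Setd7 and Pdpk1 for Clock (0.98, 0.98 and 0.98). The points share their class and their library, and the nearest genes were picked as the highest of many, so these values only describe the profile over classes.

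The time of collection, the mice in each pool, the preparation of each library and the genotype cannot be told apart in this design. Fewer cells with a transcript and fewer transcripts per cell were likewise not separated in the class sums.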

How the data were processed

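Islets were dispersed with TrypLE and captured with a 10x Genomics 3′ kit in 2 libraries, per the labels' protocols. The authors deposited a matrix of raw counts for each library, integers per gene and cell barcode, which per the file headers were written by Cell Ranger 6.1.2, while the submitters' processing notes list Cell Ranger 3.1.0, Seurat 4.0.0 and mm10. Which version made the counts is not settled, and the gene annotation is not given in the sources used here; positions come from GENCODE M21 (GRCm38).

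Barcodes with at least 500 genes, at least 1000 UMIs and at most 20% mitochondrial UMIs were kept. Beta cells had Ins1 and Ins2 at 25% or more of at least 10000 UMIs, with Gcg, Sst and Ppy each under 1%. With Ins1 and Ins2 under 15%, alpha cells had Gcg at 10% or more, delta cells Sst at 5% or more, endothelial cells at least 3 UMIs of Plvap and Cdh5, mural cells at least 5 of Rgs5 and Pdgfrb, and macrophages at least 5 of C1qa and C1qb. Alternatives were other scalings, class limits, minimums and folds, thinning and doublet removal. Class names rest on these thresholds, doublets were not removed, and barcodes meeting several rules were left out. UMIs were summed per class and divided by the class total. Intervals at 95% are exact Poisson for levels, exact conditional for ratios and exact binomial (Clopper-Pearson) for shares; without replicates they cover counting error only. Genes with at least 30 UMIs over both libraries were compared, without a pseudocount, and the ratio script was tested on simulated data. The members and lists were chosen with earlier results of these data known. Named are the 10 members, up to 4 other clock genes past 1.3-fold per class, Per1, Thra, the extremes of the hormone-responsive and immediate-early lists in beta and endothelial cells, and the 3 genes most like a member; Sphk2 and Camta1 are named for their overlap. Some genes that this rule would name are not reported here. Software was edgeR 4.0.16 (TMM) in R 4.3.3, and scanpy 1.11.5 (Scrublet), scipy 1.17.1, numpy 2.4.6, pandas 2.3.3 and matplotlib 3.10.9 in Python 3.11.15.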

Additional observations from a re-analysis of the deposited data

Results flagged for a closer look

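Among the other clock genes, 3 lay past 1.3-fold in opposite directions in 2 cell classes. Bhlhe40 was higher in alpha cells of the library labelled BcBKO (log2 ratio 0.64) and lower in its macrophages (−0.81), a difference of 1.45. Hlf was higher in endothelial (0.48) and lower in mural cells (−0.89), a difference of 1.36. Csnk1e was higher in alpha cells (0.52) and lower in macrophages (−0.54), a difference of 1.06. The intervals of Bhlhe40 in alpha cells (−0.28 to 1.62) and of Hlf in endothelial cells (39 and 41 UMIs, −0.19 to 1.15) included 0. Those of the other ratios in this paragraph lay clear of 0. With 1 library per group the difference between classes was not tested.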

How the results depend on the processing

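The 11 lower pairs became 18 with barcodes of several classes counted in each, 20 by mean UMIs per cell, 7 with a minimum of 100 UMIs and 3 at a fold of 1.5. The 2 higher pairs became 4 with barcodes of several classes counted in each, 5 with thinned cells, 5 with alpha and delta cells of low Ppy, 4 with no minimum of UMIs, and 1 with an insulin limit of 5%, with endothelial and mural barcodes split, with TMM scaling, with median-of-ratios scaling, by mean UMIs per cell, with a pseudocount of 1 CPM, with a minimum of 100 UMIs and at a fold of 1.5. Limiting Ppy, splitting those barcodes and leaving out the shared barcodes were chosen after seeing the data. The log2 difference of the target-to-activator ratio was −0.13 in beta and −0.80 in delta cells with thinned cells, −0.49 in beta cells with Arntl alone, and 0.088 in alpha cells with Arntl alone. Among the 13 pairs past 1.3-fold, the sign turned for Per2 in delta cells with low Ppy (0.10), Cry1 in endothelial cells with an insulin limit of 5% (−0.022) and Noct in macrophages with thinned cells (0.19). Pairs within 1.3-fold turned as well, with thinned cells Cry2 (0.08), Noct (0.22) and Per3 (0.68) in alpha cells, Per3 in delta cells (−0.51) and Nr1d1 in endothelial cells (0.19), and by mean UMIs per cell Per2 (−0.11), Nr1d1 (−0.18) and Clock (−0.15) in beta cells, among others nearer 0. Noct in beta and endothelial cells and Dbp in mural cells stayed past 1.3-fold under 12 of 12 settings each. In macrophages Clock, which was higher, did so under 11 of 11 settings and Dbp under 9 of 9. Called doublets were 2.25% and 2.08% of kept barcodes, and removing them gave 12 lower pairs. Mean UMIs per cell lowered the median of all genes by 0.09 to 0.27. The cause of each change was not tested. No paired analysis was possible because each group is a single library.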
